A study of Mus musculus with 6 samples.

Results

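Cholesterol synthesis genes and targets of the sterol regulatory element binding proteins (SREBPs) were followed as a set of 31 listed genes, found by symbol among 51826 genes in RNA sequencing tables of mouse embryonic fibroblasts (MEFs), connective-tissue cells grown from embryos. The list was fixed by gene name and comprised 7 enzymes of the mevalonate arm, 11 enzymes from squalene to cholesterol, 5 regulators of SREBP, 3 genes of sterol transport and 5 genes of fatty acid synthesis. All 31 had a single identifier and all 31 passed the filter on low counts, as did 14652 genes in all. The groups were 3 cultures heterozygous for Lztr1 (Lztr1 +/-, here Het), numbered 11, 15 and 18, and 3 wild-type cultures (Lztr1 +/+, here WT), numbered 10, 12 and 16. All cultures were on a C57BL/6 background, at passages 2 to 5, and grown in DMEM with glutamine on plastic. Lztr1 encodes a substrate adaptor for CUL3, through which RAS-family GTPases are ubiquitinated. How the mutant allele was made was not stated in the sources used here, nor was serum in the medium. Nothing in the labels says that the cultures came from separate embryos, so the p-values refer to the variation among 6 cultures, part of which may be technical.

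Cells make cholesterol from acetyl-CoA through mevalonate, farnesyl diphosphate and squalene. SREBPs are made as membrane precursors in the endoplasmic reticulum, where SCAP escorts them to the Golgi for cleavage when sterols are low, and INSIG proteins hold the complex back when sterols are high. The freed factors bind sterol regulatory elements in the promoters of these enzymes, together with the factors NF-Y and SP1. SREBP2 acts mainly on cholesterol genes and one form of SREBP1 mainly on fatty acid genes, while the liver X receptors (LXRs) drive sterol export. Farnesyl and geranylgeranyl groups from the mevalonate arm also anchor RAS-family proteins to membranes.

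Library totals were 11028854 to 21885101 expected counts in Het and 11025286 to 14030349 in WT. Lztr1 matched the label in all 6 cultures, at 45.9, 45.1 and 43.8 CPM (counts scaled to the size of the library) in Het cultures 11, 15 and 18, against 93.9, 94.1 and 83.2 CPM in WT cultures 10, 12 and 16. Its level was 49.7% of WT, and the edgeR quasi-likelihood test gave an adjusted p of 0.00457 (Benjamini-Hochberg over all tested genes). That call held without WT 16 (adjusted p = 0.000427) and was lost when any 1 of the other 5 cultures was left out (adjusted p from 0.0610 to 0.0740 by edgeR). WT culture 16 stood apart from the other WT cultures. Over genes, its root mean square distance in log2 CPM was 0.466 and 0.498 to WT cultures 10 and 12, which were 0.377 apart. Distances did not follow genotype, as the closest pair of all was Het 11 and WT 10 (0.366). The widest was Het 18 and WT 16 (0.515), and Het 18 was 0.486 from WT 10. Xist was high in Het 11, WT 10 and WT 16, and Y-linked genes were high in Het 15, Het 18 and WT 12, so both groups held female and male cultures in unequal numbers. Cultures 11 and 16 were also entered in the repository later than the other 4. By number, the cultures fall in runs from 10 to 12 and from 15 to 18, and the labels call neither a batch. The fibroblast markers Col1a1, Col1a2, Col3a1, Vim and Fn1 lay between 1086 and 4050 TPM (transcript abundance scaled for gene length and library size) in every culture. The other listed fibroblast markers, Pdgfra, Pdgfrb, Thy1, Dcn and Lum, lay between 30.4 and 269 TPM. Of the listed adipocyte genes, Adipoq and Lep were at 0 in all 6, and Plin1, Cidec, Plin4, Retn and Cfd were at most 0.25 TPM. Cebpa (3.50 to 5.56 TPM), Fabp4 (1.72 to 4.36 TPM) and Pparg (0.85 to 2.11 TPM) were low but present in every culture. In bulk RNA, fewer cells of a type and less RNA per cell cannot be told apart.

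Sterol synthesis enzymes were slightly lower on average in Het cultures, but no gene of the set passed the test over all genes. Of the 18 enzymes, 16 had a lower mean and 2 a higher one, with a median log2 difference of -0.11, where 50.4% of all tested genes had a lower mean and their median difference was below 0.01 in size. By edgeR 0 of the 31 genes were called at an adjusted p under 0.05, as was 0.00683% of all genes, which is Lztr1 alone. The smallest adjusted p in the set was 0.313, for Mylip. At an unadjusted p under 0.05 there were 7 of the 31, or 22.6%, against 12.2% of all tested genes, and all 7 were lower in Het (6.65% of all genes were lower and 5.56% higher at that p). They were Mvd, Fdps, Tm7sf2, Nsdhl and Dhcr7 among the enzymes, the factor gene Srebf1, and Mylip. DESeq2 called 1 gene of the set, Mylip, against 0.765% of all genes. In CPM the groups did not overlap in 6 of the 31 genes, 5 with Het below WT and 1 with Het above. Of all genes 17.7% had groups apart (9.97% with Het below), so the total count was near the background. Of the 5, only Mylip was also apart in TPM, where the groups of Mvd, Fdps, Mvk and Srebf1 overlapped.

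**Figure D1:**
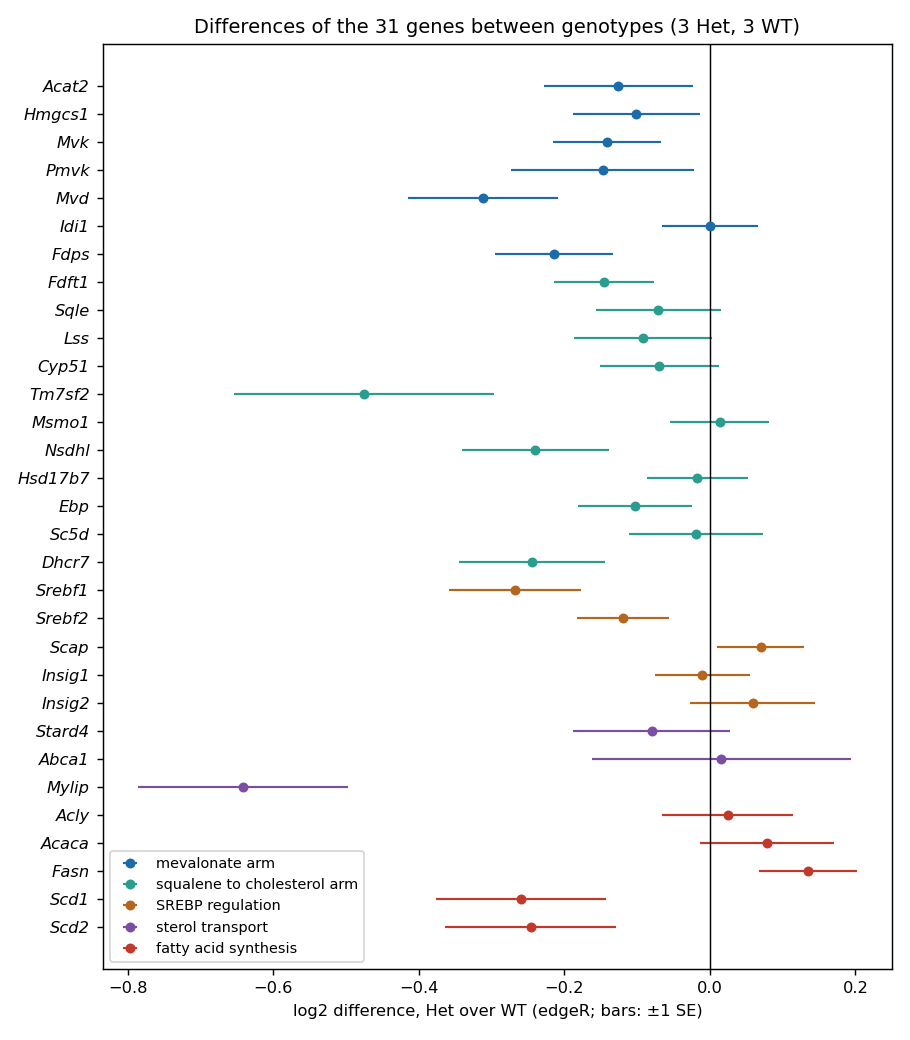
Log2 difference of each of the 31 genes between genotypes, Het over WT, with bars of 1 SE from the edgeR fit (3 cultures a group), in pathway order and coloured by role. Most enzymes lie left of 0, with Mvd at -0.31 and Tm7sf2 at -0.47, and Mylip lies farthest left at -0.64.

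The order of cultures was shared by most enzymes. WT culture 12 had the highest level of 12 of the 18 enzymes, and the lowest was in Het culture 11 for 10 of them, in WT culture 16 for 6 and in Het culture 15 for 2. The mean over the enzymes, in log2 CPM relative to the mean of WT cultures, was -0.20, -0.12 and -0.08 in Het cultures 11, 15 and 18, against 0.04, 0.11 and -0.15 in WT cultures 10, 12 and 16. Het culture 11 was therefore lowest, and WT culture 16 lay between the Het cultures rather than with the other WT cultures. Het 11 and WT 16 were also the cultures entered later in the repository. The part of later entry in their levels was not tested. The summed level per length of the 18 enzymes was 1457, 1549 and 1633 TPM in Het 11, 15 and 18, and 1755, 1918 and 1497 TPM in WT 10, 12 and 16.

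**Figure D2:**
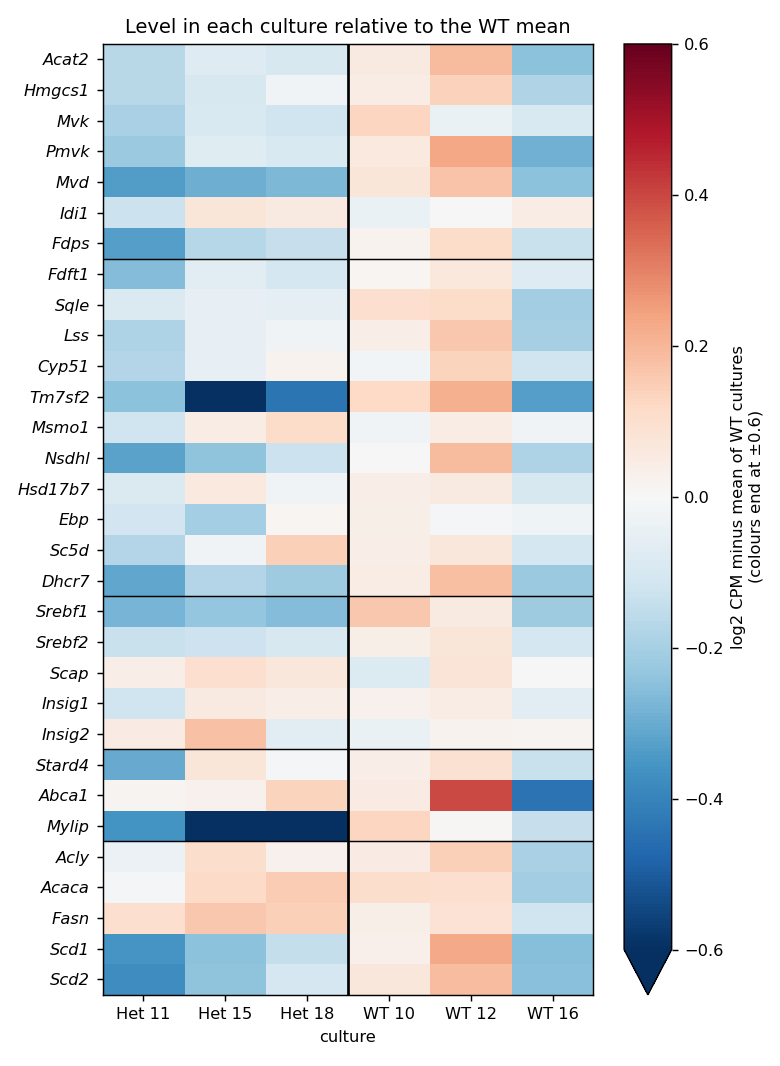
Level of each gene in each culture as log2 CPM minus the mean of the 3 WT cultures, with Het cultures left of the thick line and WT cultures right of it. Red is above the WT mean and blue below, and thin lines part the mevalonate arm, the squalene to cholesterol arm, SREBP regulation, sterol transport and fatty acid synthesis. Blue runs down the columns of Het 11 and WT 16, and red down WT 12.

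In the mevalonate arm, 6 of 7 enzymes had a lower mean in Het cultures, with a median log2 difference of -0.14. Hmgcs1, which makes HMG-CoA and is a classical SREBP2 target, had 341, 359 and 377 CPM in Het 11, 15 and 18, against 395, 422 and 338 CPM in WT 10, 12 and 16. The groups overlapped because WT 16 was below all Het cultures, and the log2 difference was -0.10 (SE 0.087, adjusted p = 0.656 by edgeR). Mvd, which decarboxylates mevalonate diphosphate to isopentenyl diphosphate and lies at chr8:122433601-122443422 (mm10, minus strand), had 42.1, 43.3 and 44.0 CPM in Het 11, 15 and 18, against 55.8, 59.8 and 44.8 CPM in WT 10, 12 and 16. In CPM all Het cultures were below all WT cultures, with a gap of less than 1 CPM to WT 16. In TPM the groups overlapped, with Het 18 at 46.5 TPM and WT 16 at 45.1 TPM. The means were 43.1 ± 0.988 CPM in Het and 53.5 ± 7.80 CPM in WT (SD, n = 3 each). On the log2 scale Mvd differed by -0.31 (SE 0.10, adjusted p = 0.329 by edgeR).

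Fdps, which makes farnesyl diphosphate, the branch point to sterols and prenyl groups, had 214, 239 and 245 CPM in Het 11, 15 and 18, against 273, 291 and 246 CPM in WT 10, 12 and 16. Het 18 and WT 16 all but met, and the log2 difference was -0.21 (SE 0.081, adjusted p = 0.368 by edgeR). In TPM the groups overlapped, with Het 18 at 382 TPM and WT 16 at 367 TPM. Mvk, the mevalonate kinase, had 45.2, 48.5 and 47.6 CPM in Het 11, 15 and 18, against 56.6, 50.4 and 48.5 CPM in WT 10, 12 and 16, and its log2 difference was -0.14 (SE 0.075). Its groups too were apart in CPM by a margin within rounding, and they overlapped in TPM (59.88 in Het 18, 59.77 in WT 16). Acat2, the first thiolase step, differed by -0.13 (SE 0.10), and Pmvk, the phosphomevalonate kinase, by -0.15 (SE 0.13), both with overlapping groups. Idi1, the isopentenyl diphosphate isomerase between Mvd and Fdps, had 126, 145 and 143 CPM in Het 11, 15 and 18, against 134, 137 and 142 CPM in WT 10, 12 and 16. Its fold was 1.00, with a 95% confidence interval of 0.9 to 1.11.

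Promoter letters are shown for 3 genes of the set. Hmgcs1 was the single gene with the searched sterol element among the 25 whose promoters were matched. No promoter was available for Sqle, Fdps, Fdft1, Scd1, Scd2 and Stard4, so these were not searched. Mvd and Mylip were genes with groups apart in CPM. Sequences are from RefSeq (GRCm38.p6, the assembly of mm10), 5′ to 3′ on the gene's strand, from 250 bases before to 50 after the start, with capitals at matches to TCACNCCAC (sterol regulatory element), CCAAT (NF-Y) or GGGCGG (SP1) on either strand. The regions are chr13:119690101-119690400 on the plus strand for Hmgcs1, chr8:122443373-122443672 on the minus strand for Mvd, and chr13:45389492-45389791 on the plus strand for Mylip.
Hmgcs1: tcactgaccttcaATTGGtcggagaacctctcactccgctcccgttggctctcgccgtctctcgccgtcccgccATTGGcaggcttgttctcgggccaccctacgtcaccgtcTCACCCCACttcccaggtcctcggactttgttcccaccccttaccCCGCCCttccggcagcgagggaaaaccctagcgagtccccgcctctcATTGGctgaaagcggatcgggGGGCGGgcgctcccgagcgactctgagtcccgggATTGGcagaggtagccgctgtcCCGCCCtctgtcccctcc
Mvd: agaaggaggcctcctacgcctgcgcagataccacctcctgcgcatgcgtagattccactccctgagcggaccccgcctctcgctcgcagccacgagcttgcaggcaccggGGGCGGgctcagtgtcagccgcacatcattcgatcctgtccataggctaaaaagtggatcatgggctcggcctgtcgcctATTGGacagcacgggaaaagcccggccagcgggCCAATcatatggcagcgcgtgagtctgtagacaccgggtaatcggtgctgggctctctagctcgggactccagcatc
Mylip: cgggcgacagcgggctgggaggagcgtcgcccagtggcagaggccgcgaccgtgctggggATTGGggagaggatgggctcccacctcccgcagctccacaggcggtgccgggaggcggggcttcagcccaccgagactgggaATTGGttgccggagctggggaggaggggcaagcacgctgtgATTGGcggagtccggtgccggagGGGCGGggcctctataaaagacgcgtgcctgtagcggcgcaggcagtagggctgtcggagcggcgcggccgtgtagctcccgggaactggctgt

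The Hmgcs1 window held 1 sterol element match from -137 to -129 relative to the start, with 4 CCAAT and 3 GGGCGG matches. Mvd had 2 CCAAT matches and 1 GGGCGG match, and Mylip 3 and 1, with no match to the sterol element letters in either window. Promoters were matched for 25 of the 31 genes, some with several starts, and gave 33 windows. Of these windows 1 held TCACNCCAC (3.03%, against 1.24% of 32851 promoters of the same length), 22 held CCAAT (66.7% against 37.4%) and 26 held GGGCGG (78.8% against 35.7%). The 3 motifs were searched independently and no match of one overlapped another in the windows printed. A match describes letters and not a bound site.

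From squalene to cholesterol, 10 of 11 enzymes had a lower mean in Het cultures, with a median log2 difference of -0.09. Of the 11, 3 had an unadjusted p under 0.05, or 27.3%, against 12.2% of all genes. Tm7sf2, a sterol C14 reductase of the endoplasmic reticulum, had the widest difference among the enzymes, at 12.4, 8.92 and 10.9 CPM in Het 11, 15 and 18, against 16.1, 17.1 and 11.7 CPM in WT 10, 12 and 16. Het 11 lay above WT 16, so the groups overlapped. The means were 10.7 ± 1.77 CPM in Het and 14.98 ± 2.87 CPM in WT (SD, n = 3 each). The log2 difference was -0.47 (SE 0.18, adjusted p = 0.365 by edgeR). Tm7sf2 shares exonic positions with Vps51 on the same strand, and its expected counts were not whole in 3 libraries, so its level is uncertain.

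Nsdhl, the sterol dehydrogenase that removes a C4 carbon, had 43.4, 45.9 and 49.5 CPM in Het 11, 15 and 18, against 54.0, 61.8 and 47.6 CPM in WT 10, 12 and 16, a log2 difference of -0.24 (SE 0.10, adjusted p = 0.396 by edgeR). Only Het 18 was above WT 16. Dhcr7, the reductase that yields cholesterol as the last step of one branch, had 48.6, 53.4 and 52.0 CPM in Het 11, 15 and 18, against 62.1, 68.2 and 51.7 CPM in WT 10, 12 and 16. Here Het 15 and Het 18 were above WT 16, and the log2 difference was -0.24 (SE 0.10, adjusted p = 0.390 by edgeR). Sqle, the squalene epoxidase and a rate-limiting step, had 166, 170.3 and 169.7 CPM in Het 11, 15 and 18, against 189, 190.1 and 152 CPM in WT 10, 12 and 16. WT 16 was lowest of all, and the log2 difference was -0.07 (SE 0.086), with a fold of 0.952 and a 95% confidence interval of 0.830 to 1.09.

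None of the remaining enzymes had an unadjusted p under 0.05. Fdft1, the squalene synthase, differed by -0.15 on the log2 scale (SE 0.068), the isomerase gene Ebp by -0.10 (SE 0.079), the lanosterol synthase gene Lss by -0.09 (SE 0.094) and the lanosterol demethylase gene Cyp51 by -0.07 (SE 0.082). The C5 desaturase gene Sc5d, the ketoreductase gene Hsd17b7 and the C4 methyl oxidase gene Msmo1 had differences of -0.02 (SE 0.092), -0.02 (SE 0.069) and 0.01 (SE 0.068). None of these 7 passed the test, and each had overlapping groups in CPM. In TPM the groups of Lss were apart, as given below. The spread of an enzyme between WT cultures was often as wide as its difference between genotypes, as in Pmvk, where the SD was 1.76 CPM in Het and 6.25 CPM in WT.

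Among the regulators, both factor genes had lower means in Het, and the escort and retention genes differed by at most 0.07 on the log2 scale. Srebf1, encoding SREBP1 at chr11:60199089-60222581 (minus strand), had 112, 115 and 113 CPM in Het 11, 15 and 18, against 152, 141 and 117 CPM in WT 10, 12 and 16. In CPM the Het cultures were all below the WT cultures, with WT 16 nearest to them. In TPM the groups of Srebf1 overlapped, at 67.1 and 65.0 TPM in Het 15 and 18 against 61.3 TPM in WT 16. Its means were 113 ± 1.83 CPM in Het and 137 ± 17.8 CPM in WT (SD, n = 3 each). The log2 difference was -0.27 (SE 0.091, adjusted p = 0.336 by edgeR). Gene-level counts do not part the forms of SREBP1, and Rai1 shares exonic positions with Srebf1 on the opposite strand. Srebf2, encoding SREBP2, had 268, 270.1 and 275 CPM in Het 11, 15 and 18, against 301, 309 and 273 CPM in WT 10, 12 and 16. WT 16 lay inside the Het range, and the log2 difference was -0.12 (SE 0.063, adjusted p = 0.473 by edgeR).

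Scap, the escort, had 70.6, 73.7 and 71.9 CPM in Het 11, 15 and 18, against 64.8, 72.5 and 68.8 CPM in WT 10, 12 and 16, a log2 difference of 0.07 (SE 0.060). Insig1, itself a strongly sterol-regulated SREBP target, had 97.6, 109.8 and 108.7 CPM in Het 11, 15 and 18, against 107.9, 109.1 and 100.9 CPM in WT 10, 12 and 16. Its groups covered nearly the same range, and its fold was 0.993 with a 95% confidence interval of 0.895 to 1.101. Insig2, the other retention gene, averaged 24.1 ± 2.01 CPM in Het and 23.1 ± 0.573 CPM in WT (SD, n = 3 each).

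Mylip, at chr13:45389742-45412022 (plus strand), had the widest difference of the 31 genes. It encodes a ubiquitin ligase, induced by LXRs, that sends lipoprotein receptors to degradation, and it is not a classical SREBP target. Its levels were 18.3, 13.4 and 13.3 CPM in Het 11, 15 and 18, against 25.8, 23.7 and 21.4 CPM in WT 10, 12 and 16. Every Het culture was below every WT culture, and this held for WT 16 too. The means were 15.03 ± 2.86 CPM in Het and 23.6 ± 2.19 CPM in WT (SD, n = 3 each), a fold of 0.641 with a 95% confidence interval of 0.509 to 0.807. The log2 difference was -0.64 (SE 0.14), and the adjusted p was 0.313 by edgeR and 0.0300 by DESeq2. Over the other settings and left-out cultures its log2 difference ran from -0.89 to -0.55, with adjusted p from 0.00642 to 0.774.

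Abca1, another LXR target, did not show groups apart. This transporter, which exports cholesterol to lipid-poor apolipoprotein, had 43.0, 43.2 and 46.7 CPM in Het 11, 15 and 18, against 44.0, 56.0 and 31.2 CPM in WT 10, 12 and 16. WT cultures held both the highest and the lowest value, and the fold of 1.011 had a 95% confidence interval of 0.761 to 1.34. Stard4, an SREBP target that carries cholesterol between membranes, had 42.5, 55.3 and 52.2 CPM in Het 11, 15 and 18, against 54.0, 56.0 and 47.9 CPM in WT 10, 12 and 16. Its log2 difference was -0.08 (SE 0.11), with Het 11 lowest.

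Fatty acid synthesis genes went both ways. Scd1 and Scd2 encode desaturases that make monounsaturated fatty acids. Scd1 had 174, 187 and 200.4 CPM in Het 11, 15 and 18, against 226, 259 and 185 CPM in WT 10, 12 and 16, a log2 difference of -0.26 (SE 0.12, adjusted p = 0.425 by edgeR). Scd2 had 1455, 1592 and 1758 CPM in Het 11, 15 and 18, against 1975, 2141 and 1583 CPM in WT 10, 12 and 16, a log2 difference of -0.25 (SE 0.12, adjusted p = 0.441 by edgeR). Both ordered the cultures in the same way, with WT 16 between Het 11 and Het 15. Scd2 stood 7.39, 7.52 and 7.74 times as high as Scd1 per length (TPM) in Het 11, 15 and 18, and 7.70, 7.29 and 7.53 times as high in WT 10, 12 and 16. In all 6 libraries the expected counts of both were not whole, so some of their reads were divided with other genes. Whether Scd1 and Scd2 share reads with each other was not tested.

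Acly, which makes cytosolic acetyl-CoA, averaged 340.2 ± 16.5 CPM in Het and 334 ± 39.2 CPM in WT, and Acaca, the acetyl-CoA carboxylase, averaged 139 ± 8.07 CPM in Het and 131 ± 15.8 CPM in WT (SD, n = 3 each). Fasn, the fatty acid synthase at chr11:120805846-120824547 (minus strand), had 456, 475 and 469 CPM in Het 11, 15 and 18, against 435, 449.8 and 390.5 CPM in WT 10, 12 and 16. It was the 1 gene of the set with every Het culture above every WT culture (7.75% of all genes), with a log2 difference of 0.13 (SE 0.067, adjusted p = 0.455 by edgeR).

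On the scale per length Fasn had the opposite order. It measured 121, 124 and 133 TPM in Het 11, 15 and 18, against 139, 135 and 155 TPM in WT 10, 12 and 16, so every Het culture was below every WT culture. Its effective length, RSEM's estimate over 6 annotated transcripts weighted by their abundance, was 6111, 6106 and 5792 bases in Het 11, 15 and 18, against 5164, 5616 and 3931 bases in WT 10, 12 and 16. The highest effective length was 1.55 times the lowest, a ratio reached by 7.54% of all tested genes. With the effective length as an offset in edgeR the log2 difference of Fasn was -0.17, and with limma on log2(TPM + 1) it was -0.19, with adjusted p of 0.499 and 0.397. Lss, with 8 annotated transcripts, likewise had longer estimates of 4366, 4142 and 4003 bases in Het 11, 15 and 18, against 3982, 3682 and 3004 bases in WT 10, 12 and 16. Its levels were 36.1, 41.0 and 44.5 TPM in Het 11, 15 and 18, against 47.1, 56.8 and 49.97 TPM in WT 10, 12 and 16, groups that were apart on this scale and overlapped in CPM. The log2 difference of Lss was -0.32 with the length offset in edgeR and -0.33 with limma on log2(TPM + 1), with adjusted p of 0.353 and 0.358, against -0.09 without length scaling. Transcript-level values were not used here.

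**Figure D3:**
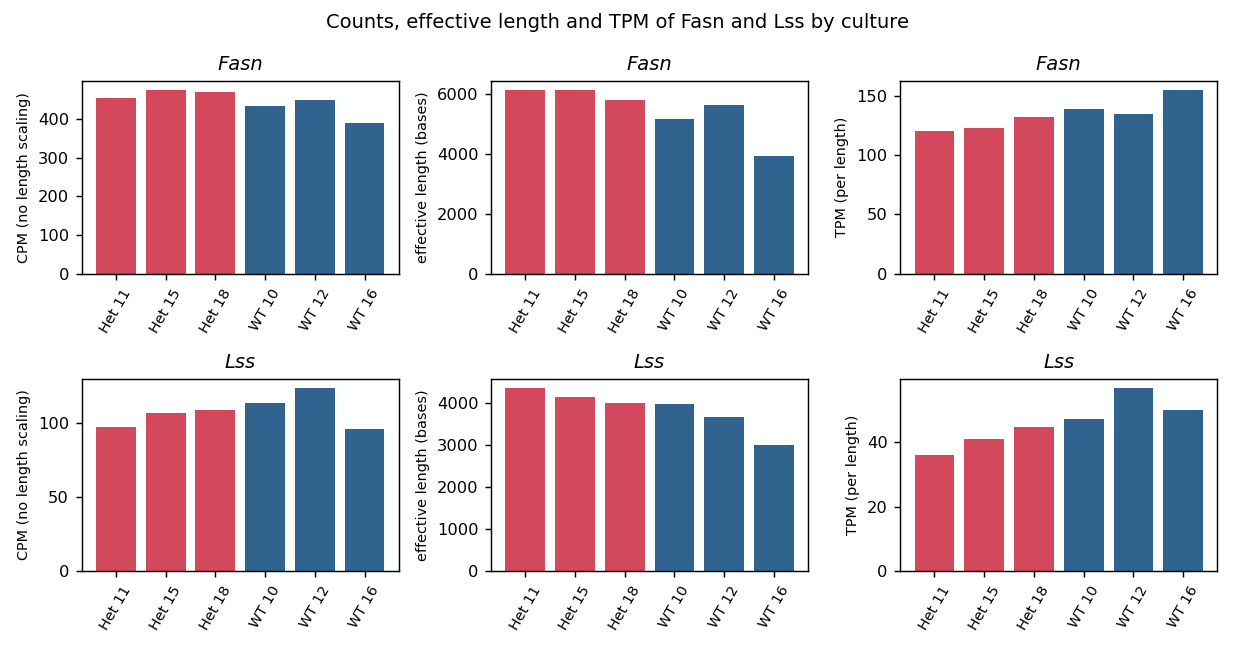
CPM, effective length in bases and TPM of Fasn (top) and Lss (bottom) in each culture, Het cultures in red and WT cultures in blue. Fasn is higher in every Het culture in CPM and lower in every Het culture in TPM, with the shortest effective length, 3931 bases, in WT 16.

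Levels per length set the scale of the pathway. Scd2 was highest of the 31 genes at 493 ± 50.6 TPM in Het and 594 ± 112 TPM in WT, followed by Fdps at 359 ± 25.05 TPM in Het and 423 ± 52.2 TPM in WT (SD, n = 3 each). Hmgcs1 came next at 192 ± 11.2 TPM in Het and 209 ± 31.05 TPM in WT. Acly, Msmo1, Fasn, Cyp51, Sqle and Acat2 averaged between 104 and 136 TPM in Het and between 114 and 143 TPM in WT. Abca1 was lowest at 7.12 ± 0.411 TPM in Het and 8.78 ± 3.98 TPM in WT, followed by Mylip at 8.49 ± 1.65 TPM in Het and 13.5 ± 1.65 TPM in WT.

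Enzymes of the set varied together across the cultures. Over the 153 pairs of the 18 enzymes the median Pearson r of log2 CPM across 6 cultures was 0.68, and 95.4% of pairs had a positive r, against a median of -0.002 and 49.9% over all pairs of tested genes. With the mean of each genotype removed from every gene, the median r of the enzyme pairs was 0.70. These are descriptions, since the values share libraries and scaling factors. Set against the mean of the enzymes, leaving out the gene itself, 11 of the 31 genes reached an r of 0.9 or more, as did 1.61% of the other 14621 genes. Scd2 (r = 0.99, Spearman rho = 1) and Scd1 (r = 0.99, rho = 1) followed the enzyme mean most closely, ahead of any enzyme. Their counts were not whole, so their values are less certain. Without the 2 cultures farthest from the median, r was 0.98 for both. Srebf2 (r = 0.97, rho = 0.94) was also close, at an r of 0.81 without those 2 cultures. Of the 11 genes, only Scd1 and Scd2 kept an r of 0.9 without the 2 farthest cultures, and it was 0.75 for Fdps, 0.61 for Pmvk, 0.55 for Mvd and 0.51 for Acat2, so these values rest on those cultures. Insig1 had r = 0.68 (rho = 0.60), Idi1 0.06 (rho = 0.09) and Insig2 -0.35 (rho = -0.37).

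Fasn, Acaca and Acly were also set against the enzyme mean with genotype means removed. The r of Fasn with the enzyme mean was 0.08 (rho = -0.09) over the 6 cultures and 0.96 with genotype means removed. Acaca had 0.50 (rho = 0.43) and 0.96, and Acly 0.64 (rho = 0.77) and 0.93. With genotype means removed, 17 of the 31 genes and 3.1% of the other 14621 genes reached an r of 0.9. With genotype means kept and the 2 cultures farthest from the median left out, r was 0.32 for Fasn, 0.57 for Acaca and 0.41 for Acly. In CPM the Het mean of Fasn, Acaca and Acly was not lower than the WT mean, though none of these differences passed the test. The same held for Idi1 and Msmo1 among the enzymes. In Fasn and Acly the order of cultures was not exactly that of the enzymes, since both were highest among Het cultures in Het 15.

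**Figure D4:**
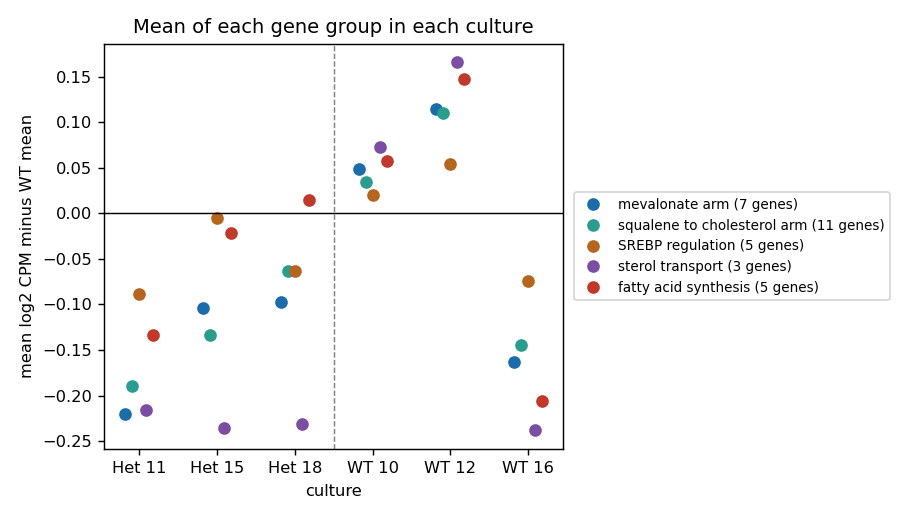
Mean over the genes of each role, in log2 CPM minus the WT mean, in each culture, Het cultures left of the dashed line and WT cultures right of it, with 1 point per role. In 4 of the 5 roles WT 16 lies below every other WT culture by more than 0.1 and among or below the Het cultures, and WT 12 is highest in all 5.

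The direction of the enzymes depended on which cultures were compared. Within cultures 10 to 12, Het 11 was below the mean of WT 10 and WT 12 for 18 of 18 enzymes, with a median log2 difference of -0.27. Within cultures 15 to 18, the mean of Het 15 and Het 18 was below WT 16 for 6 of 18 enzymes and above it for 12, with a median of 0.06. Lower enzyme levels in Het therefore did not hold within cultures 15 to 18, where WT 16 was the only WT culture. Within cultures 10 to 12, Het 11 was the only Het culture. Genotype and the level of that single culture cannot be told apart within either run. Medians over all tested genes were within 0.01 of 0 in both runs. A test of the genotype by run interaction in edgeR, chosen after the data were seen, called 0 of the 31 genes, where 48 of 14652 genes (0.328%) were called. At an unadjusted p under 0.05 it had 22 of the 31 genes, against 13.4% of all genes, and the lowest adjusted p was 0.104, for Acaca. Het 11 and WT 16 were also the cultures registered later. The interaction therefore cannot be told apart from registration or from the level of those cultures. In the first registered cultures, Het 15 and 18 against WT 10 and 12, the enzyme median was -0.15, and in the later pair, Het 11 against WT 16, it was -0.08 with 11 of 18 enzymes lower. Among Xist-high cultures the enzyme median was -0.13, with 18 of 18 lower, against 50.01% of all genes. Among those with Y-linked expression it was -0.18, with 16 of 18 lower, against 51.9% of all genes. The only Xist-high Het culture was Het 11, lowest of all cultures for 10 of 18 enzymes. The only WT culture with Y-linked expression was WT 12, highest for 12 of 18. Genotype and the level of that culture therefore cannot be told apart within either set.

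Mylip was lower in Het by 0.43 on the log2 scale within cultures 10 to 12 and by 0.67 within 15 to 18, and Tm7sf2 by 0.41 and 0.25. Of the 31 genes, 9 were lower within both runs, as were 27.3% of all genes. Mvd, Fdps and Srebf1 were among these 9, at -0.04, -0.02 and -0.03 within cultures 15 to 18. Scap, Insig2 and Fasn were higher within both runs.

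**Figure D5:**
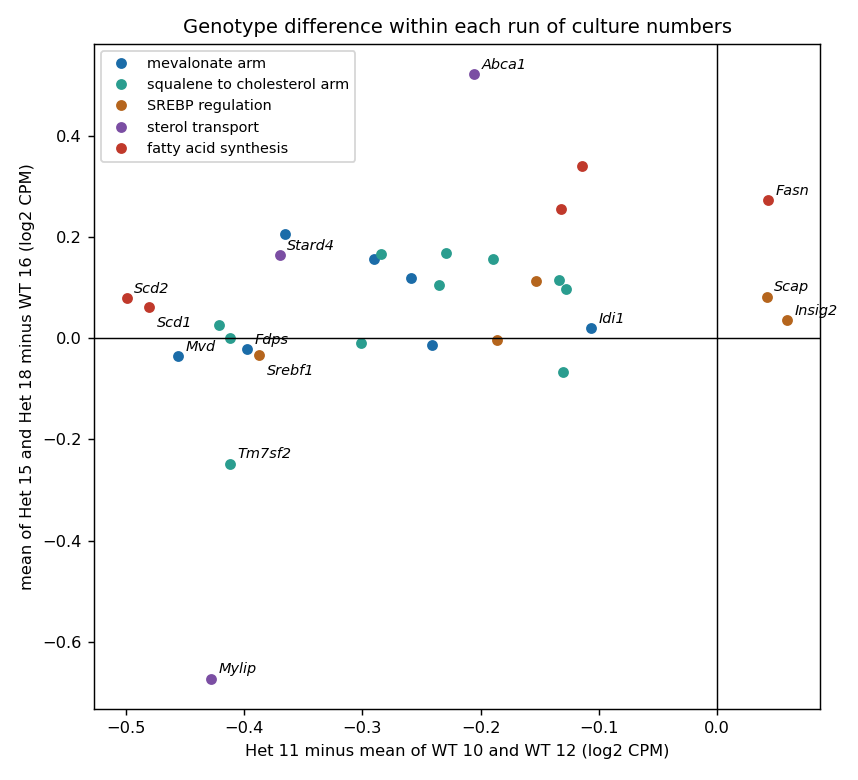
Difference between genotypes in log2 CPM within cultures 10 to 12 (x axis) and within cultures 15 to 18 (y axis), 1 point per gene, coloured by role. Most points lie left of 0, and only Mylip and Tm7sf2 lie more than 0.2 below 0 on the y axis.

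Leaving out cultures moved the counts. Without WT 16 edgeR called 6 of the 31 genes, Mvd, Dhcr7, Srebf1, Mylip, Scd1 and Scd2, all lower in Het, against 6.00% of all genes, and 17 had an unadjusted p under 0.05, against 24.0%. In the first registered cultures alone it called these 6 and Tm7sf2, against 9.70% of all genes, and 14 had an unadjusted p under 0.05, against 27.3%. In the first registered cultures both WT cultures were from the run 10 to 12 and both Het cultures from the run 15 to 18, so genotype and run cannot be told apart there. Without WT 16 no WT culture was left in the run 15 to 18. Without WT 10, WT 12 or Het 11, the genes at an unadjusted p under 0.05 numbered 1, 2 and 3, against 6.24%, 7.71% and 12.6% of all genes, and the enzyme median was -0.08, -0.02 and -0.09.

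Markers of other kinds also differed between cultures. The 10 fibroblast markers summed to 10215, 11252 and 10698 TPM in Het 11, 15 and 18, against 12350.4, 12285 and 10603 TPM in WT 10, 12 and 16, and 4 of 10 had an unadjusted p under 0.05, all lower in Het, against 12.2% of all genes (6.65% lower). Over the 6 cultures, the r of these 10 markers with the enzyme mean ran from -0.89 for Vim, an intermediate filament gene, to 0.96 for Col1a2, a collagen chain. It was 0.11 for Thy1, 0.29 for Fn1, and the other 7 lay from 0.73 to 0.96. Vim, Thy1 and Fn1 had a higher mean in Het, by 0.19 (SE 0.093), 0.15 (SE 0.25) and 0.07 (SE 0.085) on the log2 scale. Erythroid markers, with 10 of 11 listed genes found, summed to 249, 434 and 505 TPM in Het 11, 15 and 18, against 158, 126 and 437 TPM in WT 10, 12 and 16. Of the globin genes, r with the enzyme mean was taken for Hba-a1 (-0.78), Hba-a2 (-0.72) and Hbb-bs (-0.52). Markers of dividing cells summed to between 1074 and 1154 TPM in Het and between 1096 and 1137 TPM in WT. Macrophage markers summed to between 211 and 375 TPM in Het and between 258 and 336 TPM in WT, epithelial markers to between 140.4 and 287 TPM in Het and between 134 and 223 TPM in WT, and adipocyte markers to between 8.06 and 9.40 TPM in Het and between 7.89 and 12.4 TPM in WT. The part of these differences in the levels of the enzymes was not tested.

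Further genes of the pathway, taken as lists, gave 0 calls by edgeR. Among 14 other SREBP targets 9 had a lower mean in Het and 5 a higher one, with a median log2 difference of -0.03. At an unadjusted p under 0.05 there were 3, or 21.4%, all lower, against 12.2% of all genes (6.65% lower). These were Acsl3, a fatty acyl-CoA ligase (-0.20, SE 0.076), the elongase gene Elovl5 (-0.12, SE 0.049) and Acss2, the cytosolic acetyl-CoA synthetase (-0.45, SE 0.19). Acss2 had 15.1, 15.4 and 15.2 CPM in Het 11, 15 and 18, against 21.6, 26.2 and 14.6 CPM in WT 10, 12 and 16, with WT 16 below all Het cultures.

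Of 8 genes for SREBP processing and sterol-regulated degradation, 5 were higher and 3 lower on average. None had an unadjusted p under 0.05, against 12.2% of all genes. Erlin1 differed by 0.12 on the log2 scale (SE 0.074) and the protease gene Mbtps1, which cuts SREBPs in the Golgi, by -0.08 (SE 0.084). Of 14 genes that use isoprenoids, 7 were lower and 7 higher, and 1 had an unadjusted p under 0.05, or 7.14%, against 12.2% of all genes. That gene, Dhdds, which builds dolichol chains, differed by -0.18 (SE 0.068). Rce1, a protease that trims prenylated proteins, differed by -0.22 (SE 0.11), and Coq2, of ubiquinone synthesis, by -0.10 (SE 0.077).

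Among 12 genes of the LXRs, efflux, storage and lysosomal release, 2 were lower and 1 higher at an unadjusted p under 0.05, against 6.65% of all genes lower and 5.56% higher. Rxra, a partner receptor of the LXRs, had 63.8, 59.7 and 49.8 CPM in Het 11, 15 and 18, against 76.9, 82.5 and 67.7 CPM in WT 10, 12 and 16 (log2 difference -0.39, SE 0.11, adjusted p = 0.313 by edgeR). Rxrb, a second partner receptor, differed by -0.19 (SE 0.073). Nr1h3, encoding LXR alpha, was low in every culture, at 0.876, 1.42 and 1.90 CPM in Het 11, 15 and 18, against 0.493, 0.530 and 0.641 CPM in WT 10, 12 and 16. Its log2 difference was 1.28 (SE 0.40, adjusted p = 0.321 by edgeR).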

How the data were processed

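RNA was sequenced from 6 MEF cultures, 3 Het and 3 WT, with libraries from an Illumina TruSeq kit, per the labels' protocols. Groups come from the genotype and titles. Per the submitters' processing notes, RSEM 1.3.1, DESeq2 and mm10 were used. An aligner, an annotation release and a strand setting were not found in the labels or headers. Per the file headers, the deposited values include expected counts, in which RSEM divides reads among the genes they match. The deposited TPM values, scaled for effective length, served for levels per length and 1 alternative. The deposited FPKM values were used in no test. Deposited effective lengths served as an offset.

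Symbols and mm10 coordinates came from GENCODE M21 by Ensembl number (51633 of 51826 genes). Expected counts were rounded, filtered with filterByExpr (14652 genes kept), scaled by TMM and tested in R 4.3.3 with the edgeR 4.0.16 quasi-likelihood test and no covariates, with Benjamini-Hochberg adjustment over all tested genes. SE values derive from the log2 difference and its F statistic, and per-culture log2 CPM uses a prior count of 2. The alternatives were DESeq2 1.42.0, limma 3.58.1 on log2(TPM + 1), size factors, library totals, no filter, a length offset, run or Y-linked expression as a term, and left-out cultures. The members and lists were chosen with earlier results of these data known. Every member is accounted for. Members with an unadjusted p under 0.05, groups apart or a central role are given per culture, and other pathway lists name up to 3 genes by unadjusted p, except for a gene that is not reported here. The edgeR test was checked on simulated counts, where 63.4% of 82 genes set at a 1.5-fold change were called. Smaller folds were not simulated, and the simulated counts held no differences between cultures shared by genes. Of the 31 genes, 10 share exonic positions with another gene, and 11 had counts that were not whole in at least 1 library, so their values are less certain. Ahsp of the erythroid list matched no symbol.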

Additional observations from a re-analysis of the deposited data

How the results depend on the processing

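No paired analysis was possible because the groups share no culture numbers. The count of called genes, 0 in the 6 cultures, was 1 with DESeq2 (0.765% of all genes) and 7 in the first registered cultures only (9.70% of all genes). It was 0 to 6 with a culture left out, where WT 16 gave the 6 (6.00% of all genes). The genes at an unadjusted p under 0.05, 7 in the 6 cultures (12.2% of all genes), numbered 14 in the first registered cultures only (27.3% of all genes). They numbered 1 to 17 with a culture left out, where the share of all genes ran from 6.24% to 24.0%. The enzyme median kept its sign in all 15 alternatives, from -0.19 without WT 16 to -0.02 without WT 12. The fatty acid median, 0.02, was -0.19 with TPM and limma and -0.17 with the length offset, where Fasn takes those values. It was also below 0 with library totals (-0.0016), with Y-linked expression as a term (-0.023) and in the first registered cultures only (-0.032). With a culture left out it ran from -0.065 without WT 16 to 0.10 without WT 12, and it was -0.013 without Het 15. Lztr1 was at -0.92 with TPM and limma (adjusted p = 0.260) and -0.91 with the length offset in edgeR (adjusted p = 0.0850). It ran from -1.06 to -0.97 with a culture left out, at an adjusted p by edgeR of 0.000427 to 0.0740. Of 465 values of the 31 genes under the alternatives, 45 changed sign, in 12 genes, and 14 passed the threshold where the 6 cultures did not.

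Changes of sign were as follows. With library totals the log2 differences were -0.024 for Idi1, -0.011 for Msmo1, -0.012 for Abca1 and -0.0016 for Acly. With TPM and limma they were -0.029 for Msmo1, 0.077 for Sc5d, -0.19 for Abca1, -0.011 for Acly and -0.19 for Fasn. With the length offset they were -0.0070 for Msmo1, 0.10 for Sc5d, -0.26 for Abca1 and -0.17 for Fasn. With the run as a term they were -0.044 for Idi1 and -0.017 for Msmo1. With Y-linked expression as a term they were -0.033 for Idi1, -0.032 for Msmo1, -0.061 for Abca1 and -0.023 for Acly. In the first registered cultures only they were 0.0078 for Sc5d, 0.010 for Insig1, -0.15 for Abca1 and -0.032 for Acly. With a culture left out, Abca1 ran from -0.17 to 0.23, Acaca from -0.018 to 0.14, Acly from -0.065 to 0.10 and Cyp51 from -0.13 to 0.0059. Hsd17b7 ran from -0.063 to 0.019, Idi1 from -0.036 to 0.063, Insig1 from -0.045 to 0.044 and Insig2 from -0.0030 to 0.11. Msmo1 ran from -0.037 to 0.077, Sc5d from -0.10 to 0.060 and Stard4 from -0.16 to 0.030. Causes of the moves were not tested, apart from the length settings, where the effective lengths enter by construction.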
